A study of Mus musculus with 4 samples.

Results

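Foxl2, Foxl2os, Runx1, Kitl and the 6 Iroquois genes Irx1 to Irx6 are regulators or signals of the ovarian supporting cell lineage and their close relatives, and they were chosen by name from the deposited counts. They form 10 of the 34682 rows of the count table, and each of the 10 had at least 1 count. Whole ovaries of mouse embryos were collected at E13.5, and 2 RNA libraries came from mutants that overexpress Sall1 and 2 from wild-type embryos. The mutants carry a BAC transgene, a large genomic insert, in which the regulatory elements and promoter of Wt1 drive the coding sequence of Sall1, so that Sall1 is made in the somatic cells of the gonad. The transgene was inserted with PiggyBac transposase into a female embryonic stem cell line, positive clones were picked, and mice were generated by morula aggregation, which can leave cells of the host embryo in the animal. The number of clones and of embryos behind each library is not given in the sources used here. The female stem cell line was derived from C57BL/6J blastocysts, while a C57BL/6J-129 hybrid background is also named for the study's stem cells. The controls are described as littermates in one place of the study and as wild-type CD1 gonads in another. The wild-type count columns are named WtB6 and the mutant columns MutSall1N2, a label that is not explained. A difference of strain and the transgene therefore cannot be told apart.

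Supporting cells surround the germ cells of the fetal gonad. In the XX gonad they become pre-granulosa cells, the precursors of the granulosa cells of the ovarian follicle, and in the XY gonad they become Sertoli cells. The forkhead factor FOXL2 and the Runt domain factor RUNX1 are known to act together in keeping fetal supporting cells on the ovarian path. Iroquois homeodomain factors such as IRX3 and IRX5 are expressed in ovarian somatic cells and are required for normal contacts between granulosa cells and oocytes. Kit ligand, made by the somatic cells, acts on the KIT receptor of the germ cells.

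Foxl2 and the long non-coding RNA Foxl2os start back to back. On NCBIM37, which is mm9 and the build named in the submitters' processing notes, GENCODE M1 annotates both genes on chromosome 9. Foxl2 spans 98856026 to 98858545 on the plus strand and Foxl2os spans 98849574 to 98855729 on the minus strand. They do not overlap, and 296 bases separate their starts. This stretch is shown because it joins the starts of both genes, and whether it takes part in their levels was not tested. It is written on the plus strand, chr9:98855730-98856025, from the start of Foxl2os on the left to that of Foxl2 on the right, and capitals mark the GC box GGGCGG.
Foxl2os-Foxl2: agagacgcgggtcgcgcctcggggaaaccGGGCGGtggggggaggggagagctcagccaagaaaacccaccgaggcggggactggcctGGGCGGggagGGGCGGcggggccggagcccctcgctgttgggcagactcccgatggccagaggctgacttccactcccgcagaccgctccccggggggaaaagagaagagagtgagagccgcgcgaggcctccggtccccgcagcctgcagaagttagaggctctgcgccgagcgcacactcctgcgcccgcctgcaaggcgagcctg
G and C make up 72.0% of these bases, against a median of 52.7% over 32817 promoter windows of 300 bases from RefSeq (GRCm38.p6). The stretch held 3 GC boxes, none of which overlaps another, and 35.6% of the promoter windows held at least 1 on either strand. The letters TATAAA (13.6% of windows), CCAAT (37.4%), the Runt domain motifs TGTGGT and TGCGGT (22.4% for either), the forkhead motif TGTTTAC (3.65%) and the Iroquois motif ACANNTGT (7.38%) were not found in it on either strand. RefSeq holds the same bases between the starts of the 2 genes in GRCm38.p6.

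The total count was between 11036313 and 17869840 per library, with the mutant libraries shallower than the wild-type libraries. For Sall1, the overexpressed gene, mutant ovaries gave 1243 and 1445 counts against 279 and 223 counts from wild-type ovaries. Replicates differed beyond counting error in both groups. Nothing states that replicates came from separate litters, and the p-values measure the spread between these libraries only. A count of 3, taken as the floor, corresponds to between 0.170 and 0.272 CPM (CPM is the count scaled to library size, here by TMM).

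Among the genes other than Kitl, whose counts cannot be read as a level, Irx3 had the highest level and Irx6 and Irx1 the lowest. Levels are compared between genes as CPM per kilobase of exon, here called the level per kilobase. In wild-type ovaries Irx3 was at 26.5 ± 0.178 (SD, n = 2), followed by Foxl2 at 11.9 ± 1.14, Foxl2os at 6.87 ± 1.73 and Runx1 at 5.37 ± 0.823 (SD, n = 2 each). Irx5 was at 2.31 ± 0.734 and Irx2 at 0.987 ± 0.203, while Irx4 was at 0.274 ± 0.167 (SD, n = 2 each). Irx6 and Irx1 were at 0.0946 and 0.0838, which rests on at most 10 counts in any library. The ranges of Foxl2os and Runx1 overlapped in wild-type ovaries, as did those of Irx4 and Irx6 and of Irx6 and Irx1. The other neighbours in this order were separated. In mutant ovaries these 9 genes followed in the same order, and there the lower Foxl2os library lay above the higher Runx1 library. Per kilobase, Irx3 was between 1.84 and 2.40 times as abundant as Foxl2 in the 4 libraries.

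**Figure D1:**
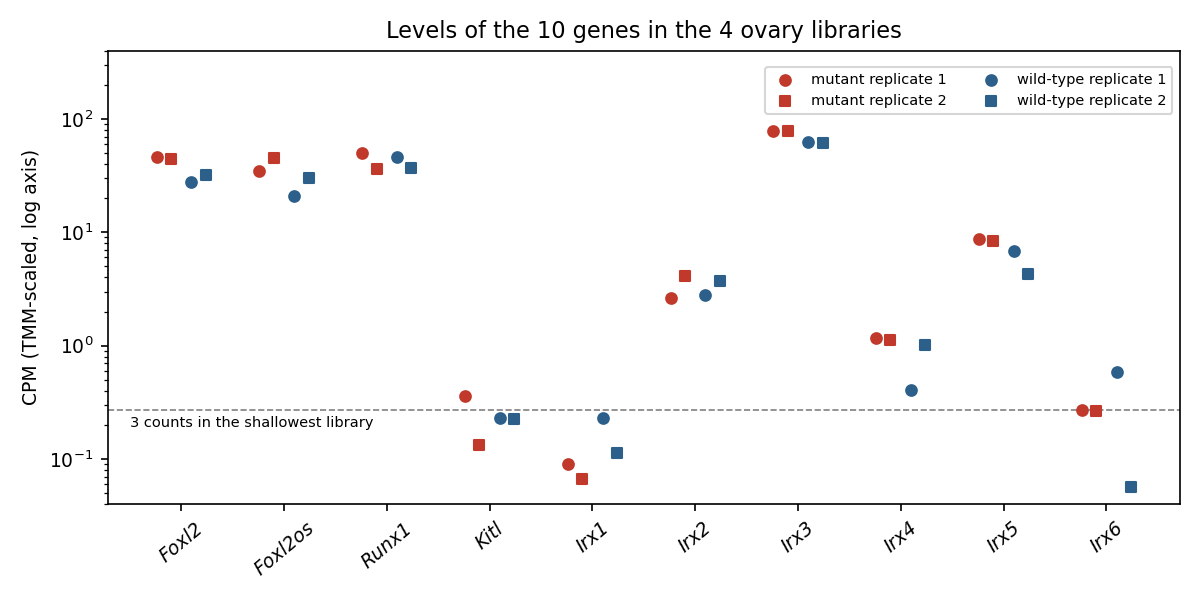
Levels of the 10 genes as TMM-scaled CPM on a log axis, with 1 point per library (mutant in red, wild-type in blue, circles for replicate 1 and squares for replicate 2). The dashed line is the level of 3 counts in the shallowest library, 0.272 CPM, and all points of Kitl and Irx1 except 1 lie under it. For Foxl2, Foxl2os, Irx3, Irx4 and Irx5 both red points lie above both blue points.

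Foxl2, which encodes the forkhead factor that maintains granulosa cell identity, had 46.2 and 44.1 CPM in mutant ovaries and 27.9 and 32.0 CPM in wild-type ovaries. Both mutant libraries lay above both wild-type libraries. The log2 fold change was 0.59 (SE, standard error, 0.12, 95% interval 0.30 to 0.88), a fold of 1.51, with an unadjusted p of 0.00204 and 0.301 after Benjamini-Hochberg adjustment across all genes (quasi-likelihood test of edgeR). With DESeq2, the tool named in the study, run here with default settings, the adjusted p was 0.138. The difference passed the threshold of 0.05 in neither of these tests, whereas it passed in the likelihood ratio test of edgeR (adjusted p = 0.0352). The calls of Foxl2 and Foxl2os depended on the model fitted, as set out with the alternatives. In bulk ovaries, a change in the share of supporting cells and a change in RNA per cell cannot be told apart.

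Foxl2os, whose function is not established, had 35.0 and 45.3 CPM in mutant ovaries and 21.1 and 30.2 CPM in wild-type ovaries. The groups did not overlap, and in each group replicate 2 had the higher value. Its log2 fold change was 0.65 (SE 0.21, 95% interval 0.16 to 1.14), with an adjusted p of 0.659 in edgeR and 0.367 in DESeq2. Foxl2os passed in neither of these tests. It was called higher in edgeR once replicate number entered the model, as set out with the alternatives. The count of Foxl2os was 0.757 and 1.03 times that of Foxl2 in mutant ovaries and 0.755 and 0.945 times in wild-type ovaries. This ratio needs no library scaling, and it differed more between replicate numbers than between genotypes.

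Runx1 spans 92601712 to 92826311 on chromosome 16 (minus strand), and counts per gene do not separate its 6 annotated transcripts. An annotated lincRNA, Gm16801, overlaps it on the other strand. It had 50.3 and 35.9 CPM in mutant ovaries and 46.4 and 37.3 CPM in wild-type ovaries. The wild-type values lay within the range of the mutant values, and the libraries of replicate 1 were the higher ones in both groups. The log2 fold change was 0.04 (SE 0.19, 95% interval -0.41 to 0.49, adjusted p = 1.00, edgeR), so that folds from 0.752 to 1.40 lie inside the interval. Without mutant replicate 1 the log2 fold change was -0.22 and without mutant replicate 2 it was 0.26.
The count of Foxl2 relative to Runx1 in the same library was 0.919 and 1.23 in mutant ovaries and 0.602 and 0.857 in wild-type ovaries. The groups did not overlap in this ratio, though with 2 libraries against 2 an exact permutation test cannot give a p below 0.333.
Cbfb, the subunit that partners Runt domain proteins on DNA, had between 86.0 and 115 CPM in mutant ovaries and 102 and 107 CPM in wild-type ovaries, with a log2 fold change of -0.06 (SE 0.15). Of the other RUNX genes, Runx2 had at most 1.13 CPM and Runx3 had 0 counts in the 4 libraries. Among 9 tested genes of a list of 11 core-binding factor partners, 0 passed with edgeR, 0 with DESeq2 and 0 at an unadjusted p under 0.05, and their median log2 fold change was -0.033 against -0.00088 for all genes tested.

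Kitl, which encodes Kit ligand, was covered by 4 and 2 counts in mutant ovaries, and each wild-type library held 4. These counts are at or next to the floor in all 4 libraries, and no fold change is given. The count table lists the gene a second time under the synonym Kitlg, with 0 counts in every library. In all, 1257 symbols of the table have such a second row under an older name. A counting step can leave out reads that fall on 2 entries at once, and the sources used here do not give the setting, so that these counts are not read as the level of Kit ligand mRNA.
Kit, the receptor on germ cells, had 205 and 195 CPM in mutant ovaries and 174 and 177 CPM in wild-type ovaries. Its groups did not overlap, and the log2 fold change of 0.19 (SE 0.09) had an adjusted p of 0.938 in edgeR. Of 15 tested genes of the Kit axis, 0 passed with edgeR or DESeq2 and 1 had an unadjusted p under 0.05, against 5.69% of all genes, with a median log2 fold change of -0.0065.

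The Iroquois genes lie in 2 clusters of 3. Irx3, Irx5 and Irx6 lie on chromosome 8, where Irx3 runs on the minus strand from 94322428 to 94325553 and 556 kb separate it from Irx5 (94881695 to 94885351, plus strand), with Irx6 (95198188 to 95204855, plus strand) 313 kb further on. Irx1 (72095680 to 72101171, minus strand), Irx2 (72766245 to 72771644, plus strand) and Irx4 (73397945 to 73407068, plus strand) lie on chromosome 13, with gaps of 665 and 626 kb. Irx3 alone held between 84.8% and 87.0% of the counts of the 6 genes in each library, and Irx5 between 6.06% and 9.55%. The cluster on chromosome 13 was represented mainly by Irx2, with 2.85% to 5.26% of the counts.
Irx3 had 79.1 and 78.2 CPM in mutant ovaries and 62.4 and 61.8 CPM in wild-type ovaries. The groups did not overlap, and the spread within them was small (78.6 ± 0.683 and 62.1 ± 0.417 CPM, SD, n = 2 each). The log2 fold change was 0.34 (SE 0.10, 95% interval 0.11 to 0.57), a fold of 1.27. It had an unadjusted p of 0.0103 and an adjusted p of 0.539 in edgeR, and an adjusted p of 0.863 in DESeq2. An annotated lincRNA, D230002A01Rik, overlaps Irx3 on the opposite strand, and whether the counting kept the strands apart is not given.
Irx5 had 8.79 and 8.43 CPM in mutant ovaries and 6.79 and 4.30 CPM in wild-type ovaries. The mutant values were close together and lay above both wild-type values, which differed from each other. The log2 fold change was 0.63 (SE 0.28, 95% interval -0.02 to 1.29, adjusted p = 0.899, edgeR), and it was 0.35 without wild-type replicate 2. Per kilobase, Irx3 exceeded Irx5 by 9.21 and 9.48 times in mutant ovaries and by 9.40 and 14.7 times in wild-type ovaries.
Irx2 had 2.63 and 4.12 CPM in mutant ovaries and 2.79 and 3.74 CPM in wild-type ovaries, with the higher value in replicate 2 of each group. The groups overlapped, and the log2 fold change of 0.06 (SE 0.36) had a 95% interval from -0.79 to 0.90. It was -0.31 without mutant replicate 2 and -0.13 without wild-type replicate 1.
Irx4 was covered by 13 and 17 counts in mutant and by 7 and 18 counts in wild-type ovaries. On the CPM scale, the wild-type values of 0.406 and 1.02 CPM lay under the mutant values of 1.18 and 1.13 CPM, but the interval of its log2 fold change of 0.68, from -0.62 to 1.99, spanned 0. Irx6 had 3 and 4 counts against 10 and 1, and Irx1 had 1 in each mutant library against 4 and 2, and a change in these genes was not detectable at this depth.

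**Figure D2:**
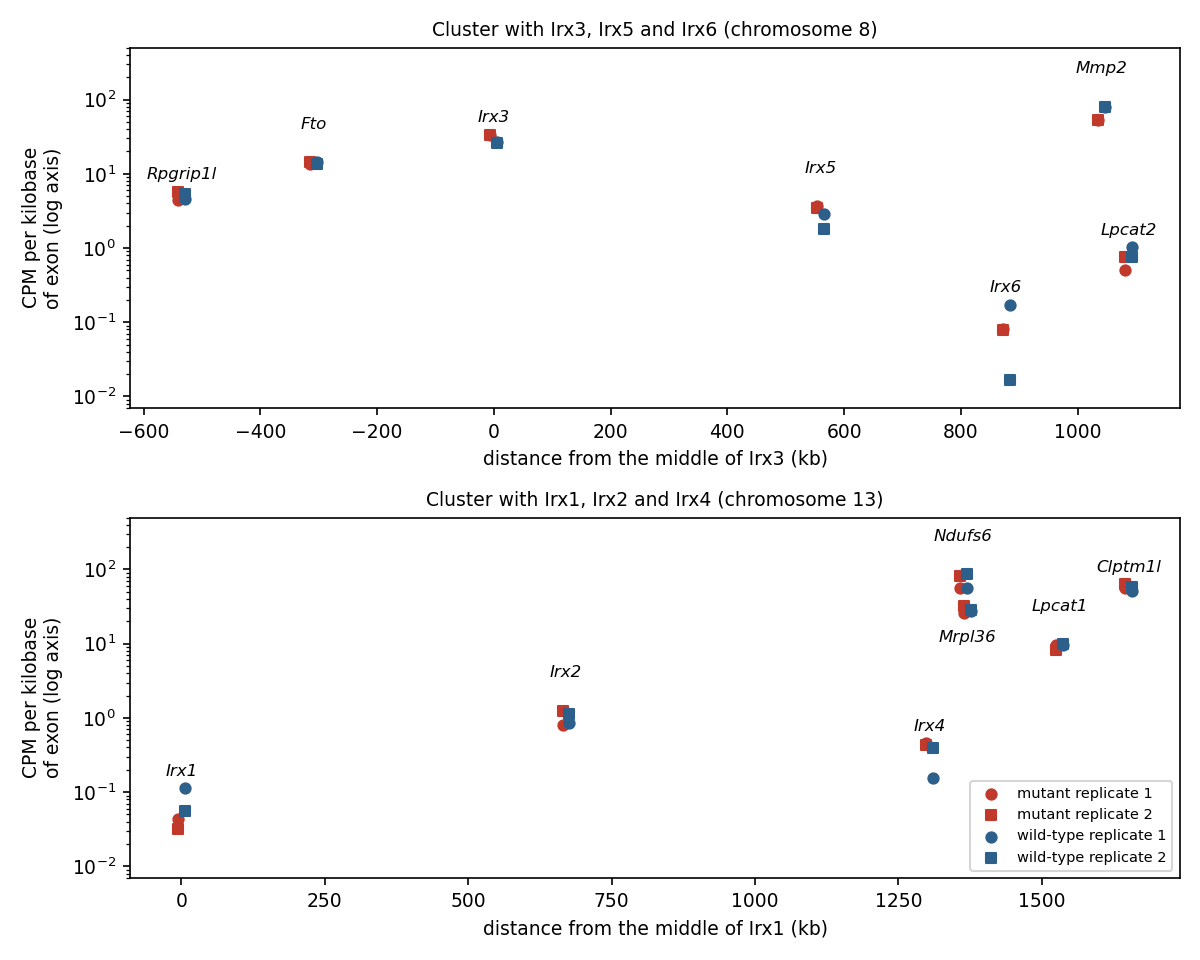
Level per kilobase (TMM-scaled CPM per kilobase of exon, log axis) for the Iroquois genes and their neighbours, against the distance of each gene's middle from the middle of Irx3 (upper panel) or Irx1 (lower panel) in kb, with 1 point per library, mutant and wild-type points set slightly apart. Irx3 is between 26.4 and 33.7 in the 4 libraries, while Irx6 and Irx1 lie under 0.2, and both red points of Mmp2 lie below its blue points.

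The genes beside the clusters were taken from a list of 15, of which 13 were tested. Among the 13, Med10 (69948760 to 69954972) and Nsun2 (69672624 to 69774658) lie on chromosome 13 more than 1000 kb from Irx1. With edgeR 0 of the 13 passed and 1 had an unadjusted p under 0.05, against 5.69% of all genes. With DESeq2 0 passed as higher and 1 as lower in the mutant ovaries, where 0.286% and 0.428% of the genes it tested did. The median log2 fold change of the list was -0.0045. Fto, whose introns hold enhancers of Irx3, lies 130 kb from Irx3 and had between 176 and 188 CPM in the 4 libraries, with a log2 fold change of -0.0045 (SE 0.09). Crnde, a non-coding RNA transcribed beside Irx5, had 9.88 and 7.50 CPM in mutant ovaries and 7.26 and 5.15 CPM in wild-type ovaries. The groups did not overlap, and a log2 fold change of 0.48 (SE 0.27) did not pass. The gene that passed with DESeq2 was Mmp2, a secreted matrix protease 146 kb beyond Irx6. It had 163 and 159 CPM in mutant ovaries and 241 and 243 CPM in wild-type ovaries, a log2 fold change of -0.59 (SE 0.08), with an adjusted p of 0.125 in edgeR and 0.000168 in DESeq2. The direction of the value of Mmp2 was thus opposite to that of Irx3 and Irx5 in the same region. Sall1 itself lies on chromosome 8, 2754 kb from Irx3.

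Of the 10 genes, 7 passed the filter on low counts (at which 15442 of all genes were tested). With edgeR at an adjusted p under 0.05, 0 of the 7 were called higher, where 0.0130% of all genes tested were, and 0 were called lower, where 0.0453% were. DESeq2 also called 0 of them, against 0.714% of the genes it tested. The likelihood ratio test of edgeR called 1 higher, Foxl2, where 62 of all 15442 genes tested were called higher and 72 lower. Once replicate number entered the edgeR model, 2 were called higher, Foxl2 and Foxl2os, where 1.17% of all genes tested were. What that number marks is not stated. At an unadjusted p under 0.05, 3 of the 7 (Foxl2, Foxl2os and Irx3) were higher in edgeR, against 2.95% of all genes. In 5 of the 7 both mutant libraries lay above both wild-type libraries, which held for 15.8% of all genes tested. These 5 were Foxl2, Foxl2os, Irx3, Irx4 and Irx5, of which Irx4 rests on at most 18 counts. The 3 genes left untested by the filter were Kitl, Irx1 and Irx6.

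**Figure D3:**
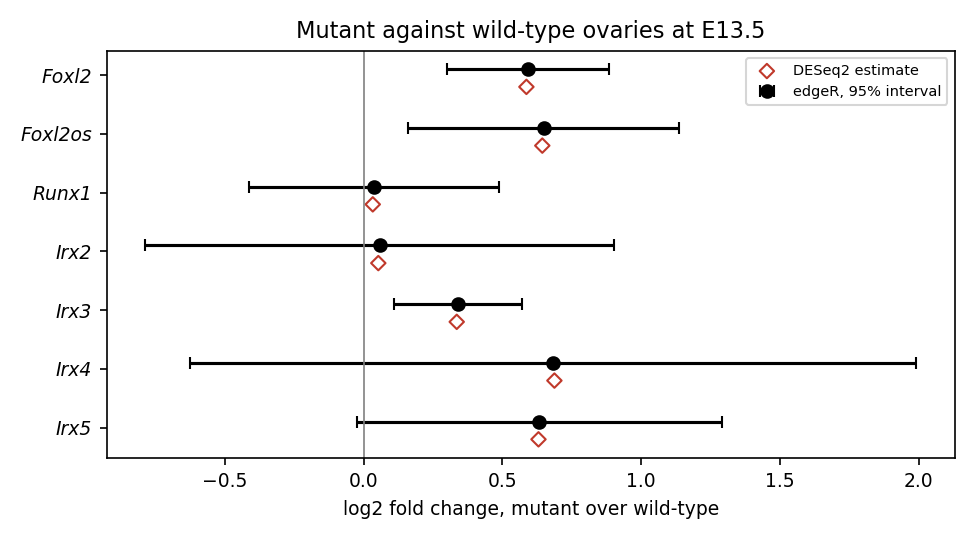
Log2 fold change of mutant over wild-type ovaries for the 7 genes tested, with the edgeR estimate and its 95% interval in black and the DESeq2 estimate as an open diamond. The intervals of Foxl2, Foxl2os and Irx3 lie above 0 before adjustment for the number of genes, that of Irx5 starts at -0.02, and those of Runx1, Irx2 and Irx4 span 0.

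To place Foxl2 and Runx1 among the other genes of the lineage, 25 further genes of ovarian supporting cells and their gonadal precursors were taken from a list, and all 25 were tested. With edgeR 0 passed, and at an unadjusted p under 0.05 there were 3 higher and 2 lower, against 2.95% and 2.73% of all genes. DESeq2 called 1 gene higher and 2 lower, where 0.286% and 0.428% of the genes it tested were called. Of the 25 genes, 14 had a positive and 11 a negative log2 fold change, and the median was 0.027, against -0.00088 for all genes tested. The groups did not overlap in 8 genes with higher and 3 with lower values in mutant ovaries, where 15.8% and 15.0% of all genes tested did so.
In the Wnt branch of the ovarian path, the intervals of the secreted factors Wnt4 and Rspo1 spanned 0. Wnt4, the ligand required for ovarian development, had 160 and 176 CPM in mutant ovaries and 146 and 188 CPM in wild-type ovaries. The groups overlapped, and the log2 fold change was 0.01 (SE 0.13). Rspo1, which encodes a secreted enhancer of Wnt signalling, had a log2 fold change of -0.06 (SE 0.10, 95% interval -0.29 to 0.18). Lgr5, a receptor for R-spondins, had 163 and 152 CPM in mutant ovaries and 109 and 97.3 CPM in wild-type ovaries. Its log2 fold change of 0.61 (SE 0.10) had an adjusted p of 0.176 in edgeR and 0.00189 in DESeq2.
Bmp2, a ligand of the BMP family made in the fetal ovary, had 24.9 and 21.8 CPM in mutant ovaries and 42.7 and 38.5 CPM in wild-type ovaries. The groups were well apart, and the log2 fold change of -0.80 (SE 0.13) had an adjusted p of 0.167 in edgeR and 0.00907 in DESeq2. Lhx9, a LIM homeodomain factor of the early gonad, had a log2 fold change of -0.56 (SE 0.14), with an adjusted p of 0.407 in edgeR and 0.0233 in DESeq2. Fst, which encodes the activin antagonist follistatin and is regarded as a target of FOXL2, had a log2 fold change of 0.14 (SE 0.09, 95% interval -0.07 to 0.35, adjusted p = 1.00, edgeR).
Wt1, whose regulatory elements drive the transgene, had between 292 and 340 CPM in the 4 libraries, and its log2 fold change was 0.03 (SE 0.10). The counts of the 25 genes together were between 45248 and 67589 per library, of which between 14720 and 23021 belonged to Ctnnb1, a gene that most cells express, so that the sum does not measure the supporting cells alone. As a share of these counts, Foxl2 amounted to 1.13% and 1.17% in mutant ovaries and 0.742% and 0.836% in wild-type ovaries, and Irx3 to 1.93% and 2.07% against 1.66% and 1.62%. Runx1 amounted to 1.23% and 0.952% in mutant ovaries and 1.23% and 0.975% in wild-type ovaries. The groups did not overlap in the shares of Foxl2 and Irx3 and overlapped in that of Runx1.

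**Figure D4:**
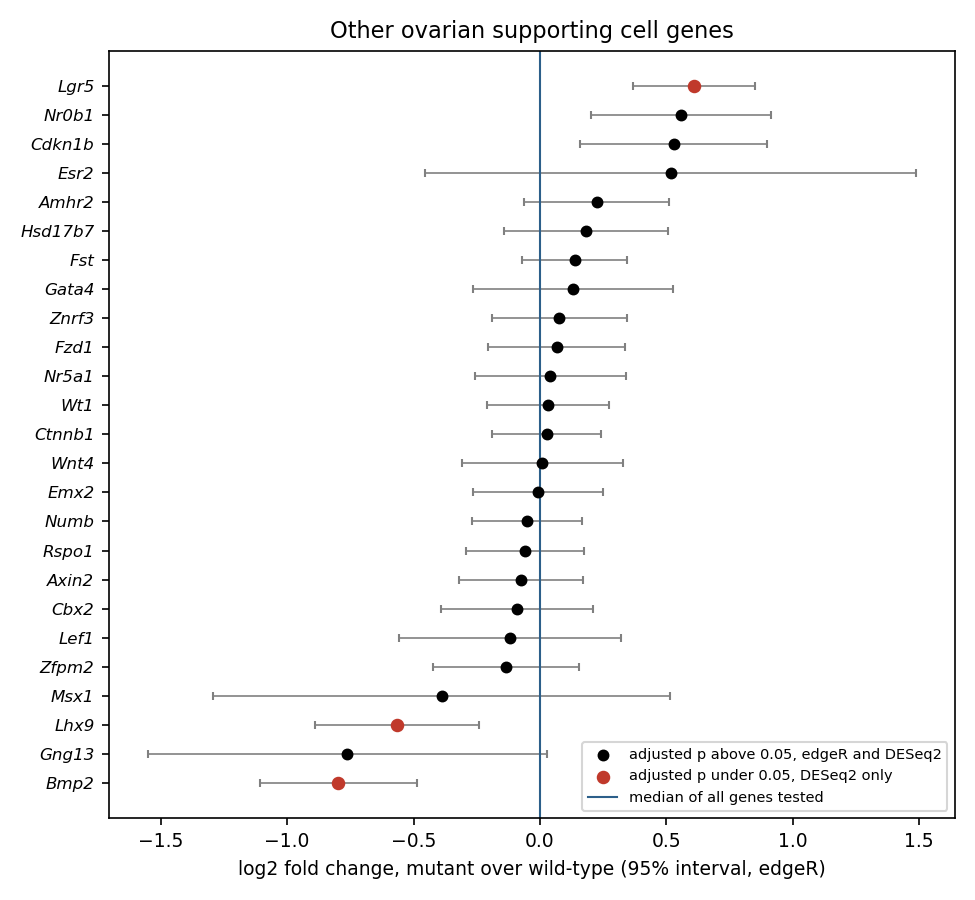
Log2 fold change of mutant over wild-type ovaries (edgeR, 95% interval before adjustment) for the 25 other ovarian supporting cell genes, ordered by value. The vertical line is the median of all genes tested, -0.00088. Lgr5, at 0.61, and Lhx9 and Bmp2, at -0.56 and -0.80, passed with DESeq2 only.

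Of 15 partners and downstream genes of FOXL2, 11 were tested, and 10 of these had a positive log2 fold change, as did 7684 of all 15442 genes tested. Among the positive values, Foxo3 and Dmrt1 were at 0.01, Nr5a1 at 0.04 and Smad2 at 0.05. The list joins partners and targets of FOXL2 with Sox9, which it represses, so that a shared direction is not read as a response to FOXL2. With edgeR and with DESeq2 0 passed, 2 were higher at an unadjusted p under 0.05 in edgeR, against 2.95% of all genes, and the median was 0.14, against -0.00088. Those 2 were Cdkn1b, a cell cycle inhibitor that is also on the supporting cell list, and Smad3, a mediator of activin signalling, with log2 fold changes of 0.53 (SE 0.16) and 0.40 (SE 0.10). They were named after their values were seen. Cyp19a1, which encodes aromatase and is a target of FOXL2 in later granulosa cells, was covered by 3 and 2 counts in mutant ovaries and by 2 in each wild-type library. Sox9, the Sertoli cell factor that FOXL2 represses in the adult ovary, had 4.35 and 4.05 CPM in mutant ovaries and 3.19 and 3.51 CPM in wild-type ovaries, with a log2 fold change of 0.32 (SE 0.28, adjusted p = 1.00, edgeR).

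Markers of other cell types were followed beside these values, since the ovaries were sequenced whole. Of 18 Sertoli cell genes 14 were tested, 0 passed with edgeR or DESeq2, 4 were higher at an unadjusted p under 0.05, against 2.95% of all genes, and the median log2 fold change was 0.24, against -0.00088 for all genes. The 4 at that unadjusted p were Ptgds, Vnn1, Aard and Gstm6, named after their values were seen. Of the 14 genes, 10 had a positive and 4 a negative log2 fold change, against 7684 and 7758 of all 15442 genes tested. The negative ones were Defb19 (-0.62), Fgf9 (-0.34), Dhh (-0.12) and Sox8 (-0.08). The summed level of the 18 genes was 232 and 220 CPM in mutant ovaries and 183 and 172 CPM in wild-type ovaries. Its largest parts were Gstm6, with 79.5 and 73.3 CPM against 49.2 and 66.5, and Dmrt1, with 54.3 and 47.9 against 58.2 and 43.0. The groups overlapped for Dmrt1. Genes at low levels, such as Sox9 and Sox8, add little to this sum. The Sertoli cell hormone gene Amh had 3 counts in each library and Etd, also on that list, had 0 counts in 3 of the 4 libraries. Of 13 germ cell genes tested, 0 passed with edgeR or DESeq2 and 0 had an unadjusted p under 0.05, and the summed level was 1999 and 2361 CPM in mutant ovaries and 2177 and 2198 CPM in wild-type ovaries.
Of the 12 interstitial cell genes 10 had a negative log2 fold change, as did 7758 of all 15442 genes tested, and their median was -0.36. Their summed level was 2089 and 1425 CPM in mutant ovaries and 1998 and 2088 CPM in wild-type ovaries, and the groups overlapped. The largest part came from Col3a1, with 1013 and 668 CPM in mutant and 935 and 1094 CPM in wild-type ovaries. Col1a1 followed, with 554 and 313 CPM against 405 and 378 CPM, and the groups overlapped for both. The sum thus mainly follows these collagen genes. Of the 12 genes, 8 had both mutant libraries below both wild-type libraries and 1 above, against 15.0% and 15.8% of all genes tested. With edgeR 0 passed, 1 was higher and 5 were lower at an unadjusted p under 0.05, against 2.95% and 2.73% of all genes. DESeq2 called Tcf21 and Pdgfra lower, with log2 fold changes of -1.10 and -0.55, where 0.428% of the genes it tested were called lower. The surface epithelium list had 8 tested genes with a median of -0.32 and a summed level of 335 and 241 CPM in mutant ovaries against 414 and 419 CPM. Its largest parts were Aldh1a2, with 78.8 and 60.6 CPM against 137 and 146, and Upk3b, with 63.4 and 48.3 against 86.2 and 97.7. In 4 of the 8 genes both mutant libraries lay below both wild-type libraries, against 15.0% of all genes tested. The groups overlapped for Krt19, Krt18, Lrrn4 and Cdh1. With edgeR 0 of the 8 genes passed and 2 were lower at an unadjusted p under 0.05, against 2.73% of all genes. DESeq2 called Upk3b and Aldh1a2 lower, with log2 fold changes of -0.72 and -1.03, against 0.428% of the genes it tested. The part of a shift between these cell types in the values of Foxl2, Foxl2os and Irx3 was not tested.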

How the data were processed

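The 4 libraries, 2 mutant and 2 wild-type, were sequenced on Illumina HiSeq. The authors mapped the reads with STAR 2.6.1d and counted them per gene with summarizeOverlaps in R. The deposited values are raw counts per gene, with a separate column for each library. Whether a library joins ovaries of several embryos is not given in the sources used here. The build is mm9 in the submitters' processing notes, and the gene annotation, the overlap mode and the handling of strands are not given in the sources used here. All 4 columns were matched to libraries by genotype and replicate number.

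The whole table was analysed in R 4.3.3 with edgeR 4.0.16 (TMM normalization, filterByExpr, quasi-likelihood F-test with genotype as the only factor, Benjamini-Hochberg adjustment over 15442 genes, threshold 0.05). The F statistic gave the standard errors and 95% intervals. DESeq2 1.42.0 (defaults), other normalizations, filters and tests, a replicate block and leaving out each library were alternatives. The fits were tested on simulated counts. CPM uses library totals multiplied by the TMM factor. Positions and exon lengths came from GENCODE M1 by symbol, and the promoter windows from RefSeq.

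The genes, the lists and the rule for naming genes (the 10 genes, their fixed partners, and list genes that passed with edgeR or DESeq2) were chosen with earlier results of these data known. Of the listed genes, Irx3os, Meioc and Pisrt1 were not analysed here. The floor of 3 counts covers counting error only.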

Additional observations from a re-analysis of the deposited data

How the results depend on the processing

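The replicate numbers are shared between the groups, but nothing states that libraries of one number share a litter or day, and the column names give them neighbouring library numbers. Their deviations from the group means correlated at 0.481 over 15442 genes, which are not independent. With the replicate block, 385 genes passed in place of 9, and 2 of the 10 genes, Foxl2 (log2 fold change 0.59, adjusted p = 0.00878, edgeR) and Foxl2os (0.65, adjusted p = 0.00433), were called higher, where 1.17% of all genes tested were. The block called 6 of the 25 supporting cell genes, in place of 0. The likelihood ratio test called 134 genes, 1 of the 10 genes (Foxl2, adjusted p = 0.0352) and 3 supporting cell genes. DESeq2 called 105 genes and 3 supporting cell genes. The study reported a larger number of deregulated genes in these ovaries, at a threshold not given in the sources used here. With no filter 28 genes passed, and with at least 10 counts in every library 19. Leaving out each library gave between 4 and 130 calls, the latter without mutant replicate 1, 38 without mutant replicate 2 and 4 without wild-type replicate 2. It gave between 0 and 0 calls among the 10 genes, between 0 and 2 supporting cell calls, and a supporting cell median from -0.026 to 0.057. In these fits the lone library of a group is assumed to vary like the other group.

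With each library left out, Foxl2 lay between 0.50 and 0.70 (adjusted p from 0.180 to 1.00), Foxl2os between 0.41 and 0.94, Irx3 between 0.33 and 0.35, Irx5 between 0.35 and 1.00 and Irx4 between 0.18 and 1.49. Runx1 ranged from -0.22 to 0.26, and was negative without mutant replicate 1 or wild-type replicate 2 (-0.10). Irx2 ranged from -0.31 to 0.33, and was negative without mutant replicate 2 or wild-type replicate 1 (-0.13). Of 76 alternative values of the 7 genes tested, 69 kept direction and side of the threshold, 3 passed it and 4 changed sign. Apart from those with a stated construction, the causes were not tested.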

Other observations

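Markers of 4 further cell types or tissues were measured in the same libraries. The mesonephros list, for the kidney tissue that lies against the fetal gonad, had 7 tested genes of 10, a median log2 fold change of -0.00024, and a summed level of 39.0 and 52.8 CPM in mutant ovaries and 47.0 and 57.0 CPM in wild-type ovaries. Calb1, a calcium-binding protein of renal tubules, was the 1 gene of that list that passed with edgeR, with a log2 fold change of -3.76 (adjusted p = 0.0449), and it passed with DESeq2 (adjusted p = 6.76e-11). Called lower were 0.0453% of all genes tested with edgeR and 0.428% of those tested with DESeq2. Pax8, a paired box factor of the developing kidney, had 13.9 and 17.7 CPM in mutant and 9.06 CPM in each of the wild-type libraries, and its log2 fold change of 0.80 (SE 0.19, unadjusted p = 0.00382) did not pass with edgeR (adjusted p = 0.372) or DESeq2 (adjusted p = 0.367). It was named after its values were seen. The 10 endothelial cell genes had a median of -0.12, and 0 passed with edgeR or DESeq2. At an unadjusted p under 0.05 in edgeR 1 was lower, against 2.73% of all genes. The blood and macrophage list had a summed level of 3243 and 912 CPM in mutant and 3540 and 1719 CPM in wild-type ovaries, lower in replicate 2 of each group. The 8 skeletal muscle genes had a summed level of 282 CPM in wild-type replicate 1 against 42.7 to 77.3 CPM in the other libraries, with a median log2 fold change of -1.94. With edgeR 0 of these passed, as with DESeq2, and 1 was lower at an unadjusted p under 0.05 in edgeR, against 2.73% of all genes.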
